A study of Homo sapiens with 12 samples.

Results

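Serine synthesis and one-carbon metabolism were followed through 9 enzyme genes, taken by symbol from the 60504 features of the expression table: PHGDH, PSAT1, PSPH, SHMT1, SHMT2, MTHFD1, MTHFD2, MTHFD1L and ALDH1L2. Polyadenylated RNA had been sequenced from 12 libraries of TKO cells, a derivative of the human multiple myeloma line KMS-11 whose genotype is given as KMS-11 WHSC1(+/-), WHSC1 being an older name of the histone H3 lysine 36 methyltransferase NSD2. The 4 groups were cells with a vector for NSD2 p.D1240A (D1240A), cells with a vector for NSD2 p.F1295A (F1295A), cells with a vector for unmutated NSD2 (WT), and cells with no vector (TKO), with 3 biological replicates each. All groups carry the same WHSC1(+/-) background. The sources used here do not state the promoter of the vector or whether a line is a clone or a pool. An empty-vector line was not analysed here, so a difference from TKO is also one between cells with and without a vector. The study asked how mutant NSD2 alters gene expression.

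Cells make serine from the glycolytic intermediate 3-phosphoglycerate in a chain of steps: PHGDH oxidises it, PSAT1 transfers an amino group to the product, and PSPH removes the phosphate. Serine hydroxymethyltransferases then split serine into glycine and a one-carbon unit carried on tetrahydrofolate, SHMT2 in mitochondria and SHMT1 in the cytosol. In mitochondria MTHFD2 and MTHFD1L carry the unit on to formate, ALDH1L2 oxidises it to carbon dioxide with formation of NADPH, and in the cytosol MTHFD1 takes up formate for purine and thymidylate synthesis. Several of these genes are known targets of ATF4, the transcription factor of the amino acid response. Dividing cells such as myeloma cells draw on these enzymes for nucleotides.

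Promoter sequences are shown for 2 genes that were higher and 2 that were lower in all vector lines than in TKO, so that the regions can be read beside the values that follow. RefSeq windows of 300 bases (250 before and 50 after a transcript start, GRCh38.p14) were at hand for 6 of the 9 genes: PHGDH, PSAT1, SHMT1, MTHFD1, MTHFD2 and MTHFD1L. Capitals mark CCAAT, TGATGNAA (the composite C/EBP-ATF response element to which ATF4 binds) and CACGTG (the E-box), searched on both strands, where N is any base. No matches overlapped each other.
PHGDH (chr1:119711684-119711983, + strand): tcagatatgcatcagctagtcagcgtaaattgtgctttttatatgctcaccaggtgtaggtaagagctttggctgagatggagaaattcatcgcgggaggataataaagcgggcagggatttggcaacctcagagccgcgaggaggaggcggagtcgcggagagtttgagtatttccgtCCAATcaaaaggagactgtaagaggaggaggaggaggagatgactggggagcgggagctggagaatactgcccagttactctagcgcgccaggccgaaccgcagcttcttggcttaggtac
MTHFD1L (chr6:150866236-150866535, + strand): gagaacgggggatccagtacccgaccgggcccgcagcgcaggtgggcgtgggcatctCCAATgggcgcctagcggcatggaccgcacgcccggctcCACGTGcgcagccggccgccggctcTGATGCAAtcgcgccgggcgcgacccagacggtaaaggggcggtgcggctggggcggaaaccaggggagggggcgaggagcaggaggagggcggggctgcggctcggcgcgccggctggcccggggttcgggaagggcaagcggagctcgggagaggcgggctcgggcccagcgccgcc
PSAT1 (chr9:78296875-78297174, + strand): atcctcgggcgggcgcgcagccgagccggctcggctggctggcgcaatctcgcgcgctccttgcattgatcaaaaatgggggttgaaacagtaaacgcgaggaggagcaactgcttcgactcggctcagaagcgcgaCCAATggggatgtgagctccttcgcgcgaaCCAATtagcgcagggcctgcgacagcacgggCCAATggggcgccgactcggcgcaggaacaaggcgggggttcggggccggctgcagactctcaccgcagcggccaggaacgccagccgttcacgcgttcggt
SHMT1 (chr17:18363501-18363800, - strand): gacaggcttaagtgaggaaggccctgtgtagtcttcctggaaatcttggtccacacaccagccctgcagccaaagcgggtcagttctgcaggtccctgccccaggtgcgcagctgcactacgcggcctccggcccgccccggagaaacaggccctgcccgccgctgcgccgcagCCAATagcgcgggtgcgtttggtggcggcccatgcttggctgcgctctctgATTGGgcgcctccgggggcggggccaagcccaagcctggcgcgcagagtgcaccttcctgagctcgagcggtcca
All 6 genes had a CCAAT match in at least 1 window. Counted by window, 8 of their 9 windows had one, against 34.6% of 34943 promoter windows of this length. Of these 8, 3 were overlapping windows of MTHFD1L that share the same match. TGATGNAA was found at MTHFD1L only, in 3 overlapping windows of its 4, against 3.62% of all windows. CACGTG was found at MTHFD1 and MTHFD1L, in 4 of the 9 windows (3 of them the overlapping ones of MTHFD1L), against 7.23% of all windows. These are matches of letters, and binding was not measured here.

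Values were taken to be FPKM (fragments relative to the length of the gene and to all mapped fragments) and were rescaled between libraries. As FPKM they can be compared between genes because they are per length. Changes are log2 differences of log2(FPKM + 0.5), tested with limma over 14391 genes, and a gene is called at an adjusted p (Benjamini-Hochberg over all tested genes) under 0.05. NSD2 mRNA measured 242 to 259 FPKM in D1240A, 159 to 172 in F1295A, 188 to 195 in WT and 58.7 to 62.7 in TKO, and vector and chromosomal transcripts were not told apart. D1240A replicate 2 stood apart: ribosomal RNA features held 52.7% of its FPKM sum, against 1.66% to 2.47% in the other 11 libraries. It was kept, and calls of the enzyme genes that hang on it are given without it. Of 9 plasma cell markers, 6 were at or above 1 FPKM in every library (among them JCHAIN, XBP1 and IRF4). SDC1 was at 0.129 to 0.368 in the vector lines and 3.84 to 4.29 in TKO. Over the 12 libraries CD38 was at 0.160 to 1.20 and SLAMF7 at 0.328 to 2.11. SDC1, CD38 and MZB1 had their highest group mean in TKO, against the direction of the sum that follows. The 9 plasma cell markers summed to 3811 to 4141 FPKM in D1240A, 4634 to 5044 in F1295A, 4680 to 4917 in WT and 2340 to 2553 in TKO, most of it JCHAIN, and the part of this difference in the results was not tested. Of 10 markers of other cell types 6 were below 1 FPKM in every library, the highest value was 2.84 FPKM (EPCAM), and their sum was 4.10 to 5.18 in D1240A, 3.26 to 4.10 in F1295A, 4.21 to 5.04 in WT and 4.99 to 6.06 in TKO.

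Every one of the 9 genes passed the filter on low values. In WT against TKO, 6 of the 9 enzymes rose and 2 fell, while MTHFD1 was not called, and the median log2 change was 0.53. Over all tested genes 49.7% were called, 25.8% higher and 23.9% lower, with a median of -0.01. In D1240A against TKO, 5 rose, 3 fell and 1 was not called, with a median of 0.28, where 44.6% of all genes were called, 23.0% higher and 21.6% lower. In F1295A against TKO, 6 rose, 2 fell and 1 was not called, with a median of 0.49, where 45.7% of all genes were called, 23.7% higher and 22.0% lower. These 3 comparisons share the TKO libraries and are not independent of each other. Both directions occurred in the serine chain, where the enzymes on either side of PSAT1 rose and PSAT1 itself fell in all 3 comparisons. Among the folate enzymes SHMT1 fell in all 3 comparisons, and in WT the mitochondrial ones rose. RNA came from bulk cultures, so a change in all cells and a change in a share of the cells cannot be told apart.

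**Figure D1:**
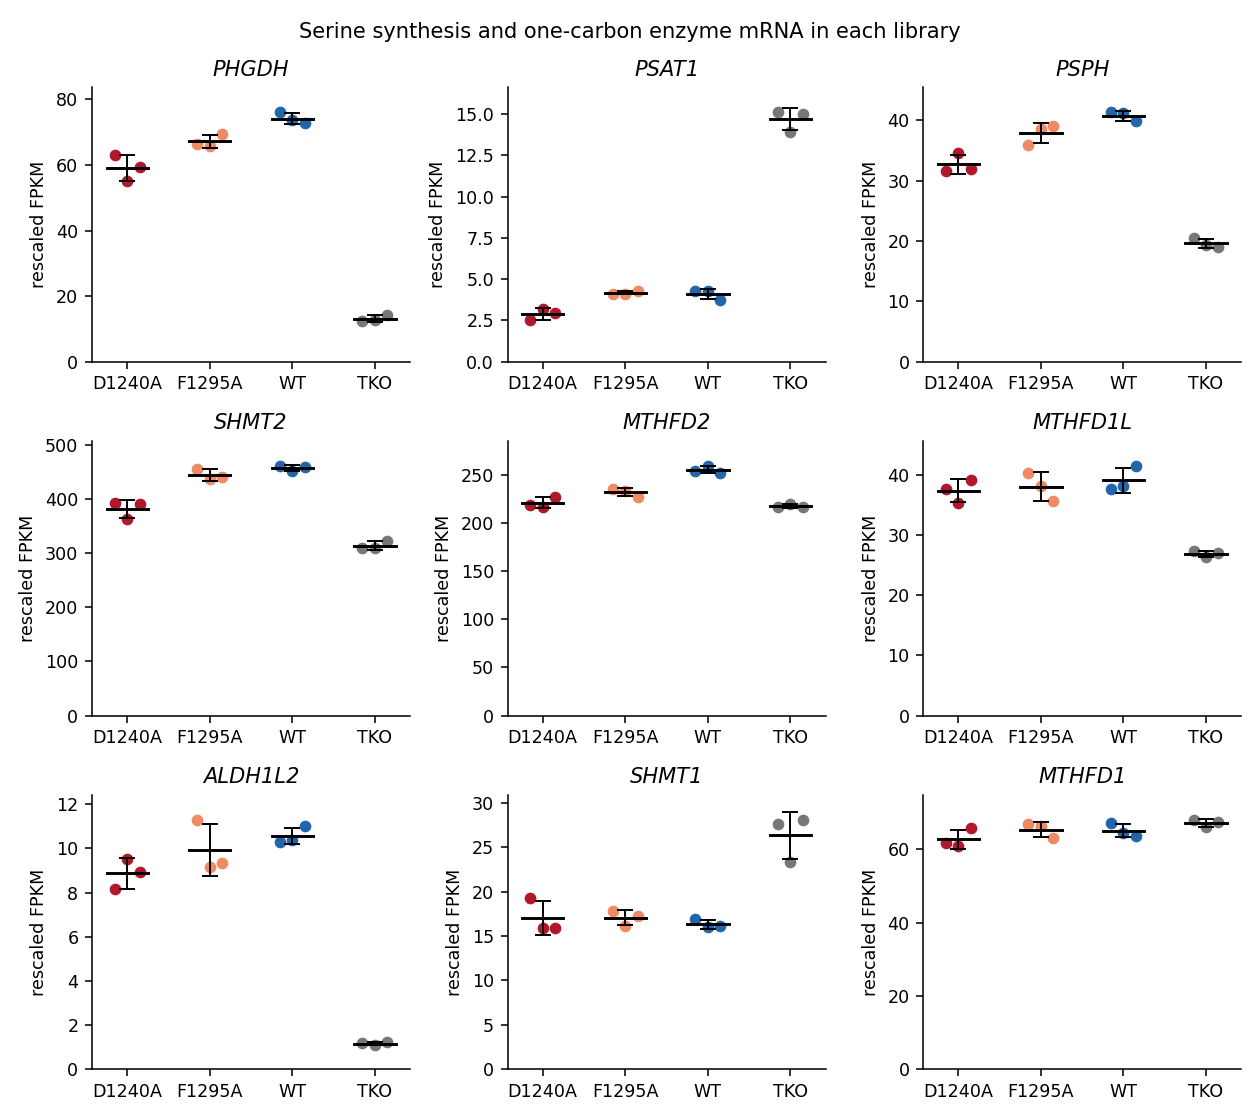
Rescaled FPKM of the 9 enzyme genes (linear axes from 0) in each library of D1240A, F1295A, WT and TKO; points are libraries, thick bars means and error bars the SD of 3 libraries. PHGDH is at 12.5 to 14.4 FPKM in TKO and above 55 in every vector line, while PSAT1 is at 13.9 to 15.1 in TKO and below 4.4 in the vector lines.

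PHGDH, the first enzyme of the chain (ENSG00000092621, GENCODE 29 on GRCh38, chromosome 1, 119648411 to 119744226, plus strand), measured 63.0, 55.1 and 59.4 FPKM in D1240A, 66.5, 65.7 and 69.5 in F1295A, 76.1, 73.6 and 72.8 in WT, and 12.5, 12.7 and 14.4 in TKO. The vector lines lay far above TKO, with no overlap. WT and TKO averaged 74.2 ± 1.73 and 13.2 ± 1.05 FPKM (SD, n = 3 each), a log2 change of 2.45 ± 0.06 (SE), or 5.46-fold (adjusted p = 5.4e-11). The log2 change from TKO was 2.12 in D1240A (adjusted p = 1.9e-10) and 2.31 in F1295A (adjusted p = 1.1e-10).

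PSAT1, the aminotransferase of the second step (ENSG00000135069, chromosome 9, 78297143 to 78330093, plus strand), went the other way. It measured 2.51, 3.22 and 2.94 FPKM in D1240A, 4.12, 4.11 and 4.28 in F1295A, 4.31, 4.27 and 3.77 in WT, and 15.1, 13.9 and 15.0 in TKO. All 9 vector libraries were below all 3 TKO libraries. The log2 change from TKO was -2.16 in D1240A (adjusted p = 2.7e-09), -1.70 in F1295A (adjusted p = 1.6e-08) and -1.72 ± 0.08 (SE) in WT (adjusted p = 1.2e-08). WT kept 0.304 of the TKO level by the fitted change.

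PSPH, the phosphatase that releases serine (ENSG00000146733, chromosome 7, 56011051 to 56051604, minus strand), measured 31.6, 34.5 and 31.9 FPKM in D1240A, 35.9, 38.5 and 39.0 in F1295A, 41.3, 41.1 and 39.8 in WT, and 20.5, 19.3 and 19.0 in TKO. Vector lines and TKO did not overlap. Its log2 change from TKO was 0.72 in D1240A (adjusted p = 2.0e-07), 0.93 in F1295A (adjusted p = 2.2e-08) and 1.03 in WT (adjusted p = 7.2e-09). The table also lists 14 pseudogenes of the enzyme genes, 11 of them at 0 in every library, and the highest value of any was 0.880 FPKM as deposited (PSPHP1).

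Because PHGDH and PSPH rose where PSAT1 fell, their balance within a library shifted, and such ratios of deposited values do not depend on the rescaling. PHGDH over PSAT1 was 20.8 ± 4.01 in D1240A, 16.1 ± 0.130 in F1295A, 18.1 ± 1.10 in WT and 0.901 ± 0.0674 in TKO (SD, n = 3 each). TKO cells thus held the 2 transcripts at near equal levels per length, and all 9 vector libraries held at least 16.0 times more PHGDH than PSAT1. PSPH over PSAT1 was 11.4 ± 1.02 in D1240A, 9.06 ± 0.319 in F1295A, 9.93 ± 0.550 in WT and 1.34 ± 0.0673 in TKO.

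**Figure D2:**
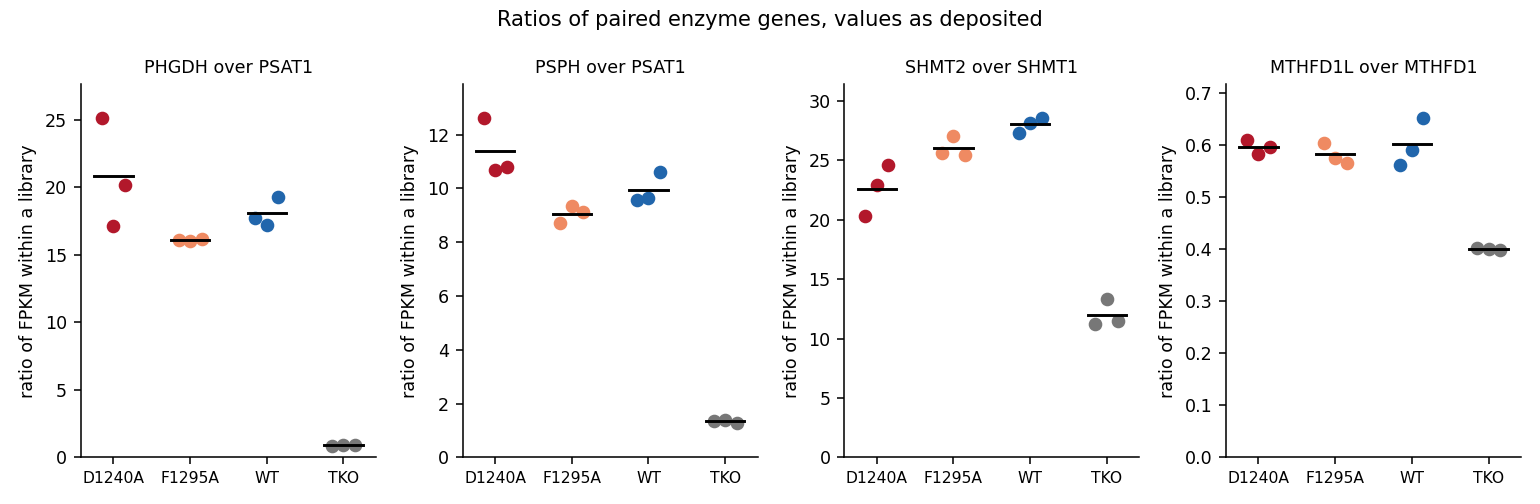
Ratio of the deposited FPKM of 2 enzyme genes within each library of D1240A, F1295A, WT and TKO (linear axes from 0); points are libraries and bars means of 3. PHGDH over PSAT1 is 0.827 to 0.959 in TKO and 16.0 to 25.1 in the vector lines.

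The mitochondrial enzymes among the 9 genes rose in WT, by very different amounts. ALDH1L2, the mitochondrial formyltetrahydrofolate dehydrogenase (ENSG00000136010, chromosome 12, 105019784 to 105084577, minus strand), had the largest change of the 9 genes. It measured 8.14, 9.53 and 8.95 FPKM in D1240A, 11.3, 9.18 and 9.36 in F1295A, 10.3, 10.4 and 11 in WT, and 1.17, 1.09 and 1.24 in TKO. TKO was at the edge of expression and no library of a vector line came near it. The log2 change from TKO was 2.49 in D1240A (adjusted p = 1.1e-09), 2.64 in F1295A (adjusted p = 5.4e-10) and 2.73 ± 0.08 (SE) in WT (adjusted p = 3.1e-10). At such low TKO values the pseudocount counts: the log2 change in WT ranged from 2.41 to 3.07 over all settings tried. C12orf45, on the opposite strand, overlaps the span of ALDH1L2 over 54414 bases, introns included, and overlap of exons was not measured. The sources used here do not state whether reads were counted by strand. Reads from any exon sequence shared by the 2 genes therefore cannot be assigned with certainty. C12orf45 measured 18.3 FPKM on average in D1240A, 20.1 in F1295A, 20.4 in WT and 16.4 in TKO, a log2 change of 0.31 in WT against TKO (adjusted p = 0.00575).

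SHMT2, the mitochondrial serine hydroxymethyltransferase (ENSG00000182199, chromosome 12, 57229327 to 57234935, plus strand), was the most abundant of the 9 transcripts. It measured 392, 363 and 391 FPKM in D1240A, 456, 436 and 440 in F1295A, 461, 451 and 459 in WT, and 310, 309 and 323 in TKO. Every vector library exceeded every TKO library. The log2 change from TKO was 0.28 in D1240A (adjusted p = 4.0e-05), 0.50 in F1295A (adjusted p = 3.0e-07) and 0.54 in WT (adjusted p = 1.3e-07). On the values as deposited the D1240A change was 0.13 and was not called (adjusted p = 0.301). There D1240A replicate 2 was at 295.68 FPKM, against 363 after rescaling.

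MTHFD1L, the mitochondrial formyltetrahydrofolate synthetase (ENSG00000120254, chromosome 6, 150865549 to 151101887, plus strand), measured 37.6, 35.4 and 39.2 FPKM in D1240A, 40.4, 38.1 and 35.7 in F1295A, 37.7, 38.1 and 41.5 in WT, and 27.4, 26.4 and 27.0 in TKO. The vector lines overlapped each other and all lay above TKO. The log2 change from TKO was 0.46 in D1240A (adjusted p = 2.7e-05), 0.49 in F1295A (adjusted p = 1.5e-05) and 0.53 in WT (adjusted p = 7.1e-06).

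MTHFD2, the mitochondrial methylenetetrahydrofolate dehydrogenase (ENSG00000065911, chromosome 2, 74198562 to 74217565, plus strand), was abundant in all groups and moved least of the mitochondrial enzymes. It measured 219, 216 and 227 FPKM in D1240A, 235, 233 and 227 in F1295A, 254, 259 and 252 in WT, and 216, 220 and 216 in TKO. D1240A overlapped TKO, and WT stood above the other groups. It rose in WT (0.23, adjusted p = 2.1e-05) and in F1295A (0.09, adjusted p = 0.0143), and in D1240A the log2 change was 0.02 (95% interval -0.04 to 0.08, adjusted p = 0.525). On the values as deposited neither the WT change (0.20, adjusted p = 0.0850) nor the F1295A change (0.04, adjusted p = 0.787) was called. With the median of its 50 neighbouring genes removed, the F1295A change was 0.02 (adjusted p = 0.518).

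The cytosolic folate enzymes SHMT1 and MTHFD1 did not rise with them. SHMT1, the cytosolic serine hydroxymethyltransferase (ENSG00000176974, chromosome 17, 18327860 to 18363563, minus strand), measured 19.3, 15.9 and 15.9 FPKM in D1240A, 17.8, 16.1 and 17.3 in F1295A, 16.9, 16.0 and 16.1 in WT, and 27.6, 23.3 and 28.1 in TKO. All vector libraries were below all TKO libraries and overlapped each other. The log2 change from TKO was -0.62 in D1240A (adjusted p = 1.0e-04), -0.61 in F1295A (adjusted p = 1.1e-04) and -0.67 in WT (adjusted p = 4.3e-05). SHMT2 over SHMT1 within a library was 22.6 ± 2.17 in D1240A, 26.0 ± 0.878 in F1295A, 28.0 ± 0.632 in WT and 12 ± 1.11 in TKO (SD, n = 3 each).

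MTHFD1, the trifunctional cytosolic folate enzyme (ENSG00000100714, chromosome 14, 64388031 to 64463457, plus strand), was nearly level: 61.7, 60.8 and 65.7 FPKM in D1240A, 66.8, 66.3 and 63.1 in F1295A, 67.1, 64.6 and 63.7 in WT, and 68.1, 66.0 and 67.6 in TKO. The change from TKO was -0.05 in WT (95% interval -0.13 to 0.03) and -0.04 in F1295A (-0.12 to 0.04), and neither was called (adjusted p = 0.328 and 0.414). It fell by 0.10 on the log2 scale in D1240A (adjusted p = 0.0443). That call was lost without TKO replicate 1, 2 or 3, D1240A replicate 1 or 2, F1295A replicate 2, or WT replicate 2 or 3, with adjusted p from 0.0508 to 0.141. It was also lost with the replicate number as a block (0.0638), with no filter (0.0706), with only the compared groups (0.0787) and with library weights (0.0989), and 7 enzyme genes were called in this comparison without D1240A replicate 2. MTHFD1L over MTHFD1 within a library was 0.596 ± 0.0137 in D1240A, 0.582 ± 0.0202 in F1295A, 0.601 ± 0.0458 in WT and 0.401 ± 0.00212 in TKO.

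**Figure D3:**
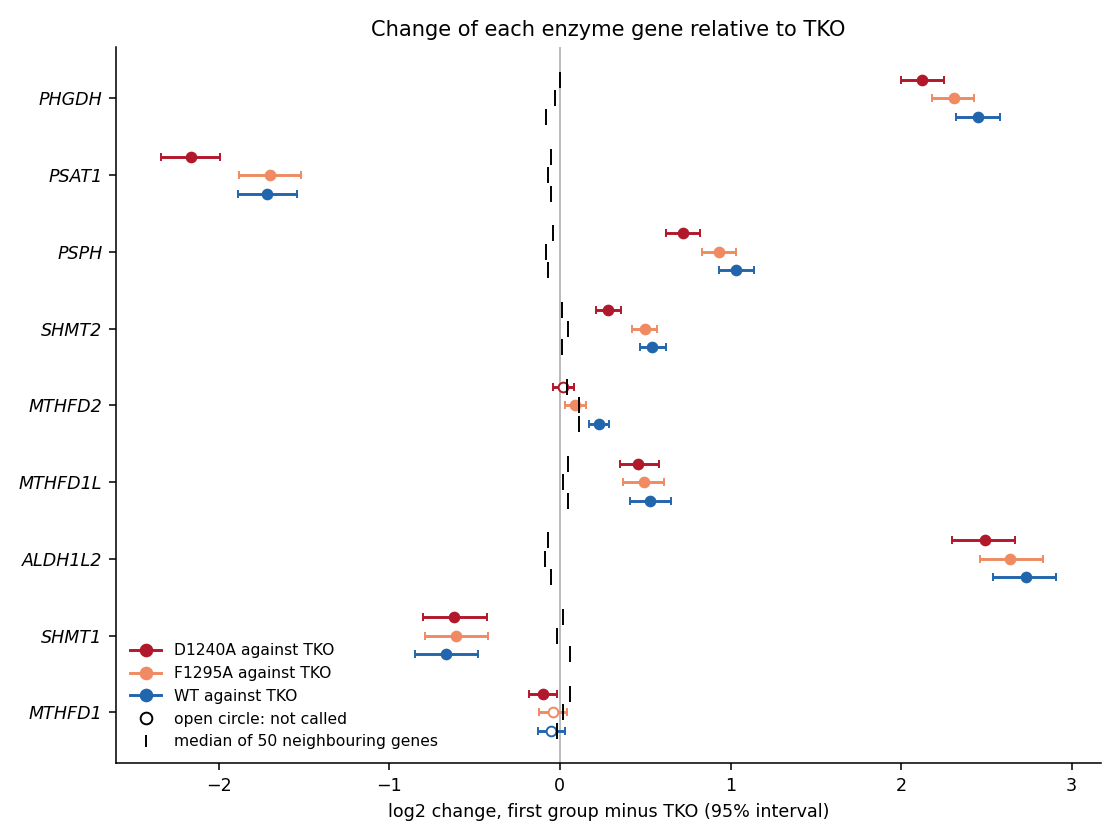
Log2 change from TKO of each enzyme gene in D1240A, F1295A and WT with its 95% interval; filled circles were called, open circles not, and black ticks give the median change of the 50 tested genes nearest on the chromosome. PHGDH, PSPH, SHMT2, MTHFD1L and ALDH1L2 lie above 0 and PSAT1 and SHMT1 below 0 in all 3 comparisons, while neighbour medians stay between -0.09 and 0.11.

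The genes around the enzymes had medians near 0. The median log2 change from TKO of the 50 tested genes around each enzyme gene lay between -0.09 and 0.11 in the 3 comparisons. For PSAT1 in WT it was -0.05, with 11 neighbours higher and 11 lower, and for PHGDH -0.08, with 7 higher and 9 lower. MTHFD2 had the highest neighbour median, 0.11 in both WT and F1295A, against its own changes of 0.23 and 0.09. Other overlapping transcripts were low. Those with the most signal at SHMT1, SHMT2 and MTHFD1 lie on the opposite strand: SMCR8 at SHMT1 (196 bases shared) reached 5.04 FPKM as deposited, NDUFA4L2 at SHMT2 (33 bases) 5.15 and ZBTB25 at MTHFD1 (14352 bases) 3.70. NDUFA4L2 was itself higher in WT than in TKO, by 1.95 on the log2 scale.

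The vector lines were then set against each other. They also differed in NSD2 mRNA, by 0.39 on the log2 scale in D1240A against WT (adjusted p = 5.6e-05). In F1295A against WT it differed by -0.22 (adjusted p = 0.0134). The part of these differences in the results was not tested. In D1240A against WT, 5 of the 9 enzyme genes fell and the other 4 were not called, with a median of -0.24 and 8 of 9 estimates below 0. Over all tested genes 19.0% were called, 7.75% higher and 11.2% lower. The share called was 12% without WT replicate 1, 12.5% with only these groups in the fit and 11.1% on the values as deposited. At least 5 enzyme genes were called in each, though the deposited values shift D1240A down. PSAT1 fell by 0.45 on the log2 scale (2.89 ± 0.354 FPKM in D1240A and 4.12 ± 0.300 in WT, adjusted p = 0.00298). PHGDH fell by 0.33 (adjusted p = 0.00269), PSPH by 0.32 (adjusted p = 7.9e-04), SHMT2 by 0.26 (adjusted p = 3.9e-04) and MTHFD2 by 0.21 (adjusted p = 3.4e-04). For these 5 genes, and for ALDH1L2, the 3 D1240A libraries lay below the 3 WT libraries. The share of all tested genes so separated was not computed. The same 5 genes were called without D1240A replicate 2. ALDH1L2 measured 8.87 ± 0.695 FPKM in D1240A and 10.5 ± 0.373 in WT, a log2 difference of -0.24 (95% interval -0.42 to -0.05) that was not called (adjusted p = 0.0703). It was called without F1295A replicate 1 (adjusted p = 0.0325) and on the values as deposited (adjusted p = 0.0283). In the latter, D1240A replicate 2 was at 7.76 FPKM, against 9.53 after rescaling. The differences of SHMT1 (0.05, interval -0.13 to 0.24), MTHFD1L (-0.06, interval -0.18 to 0.05) and MTHFD1 (-0.05, interval -0.14 to 0.03) were not called.

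In F1295A against WT, 1 of the 9 genes fell and the other 8 were not called, where 2.70% of all tested genes were called, 0.876% higher and 1.82% lower. That share was 1.17% or 1.45% without F1295A replicate 2 or 3, 1.05%, 1.59% or 1.21% without WT replicate 1, 2 or 3, and 0.616% on the values as deposited. The gene was MTHFD2, at 232 ± 4.46 FPKM in F1295A and 255 ± 3.46 in WT, a log2 change of -0.14 (adjusted p = 0.0197). The call was lost without F1295A replicate 2 or 3 or WT replicate 1, 2 or 3, with adjusted p from 0.0536 to 0.0784. It was also lost on the values as deposited (0.646), with only these 2 groups in the fit (0.0510) and with the replicate number as a block (0.0573). PHGDH (-0.14, interval -0.27 to -0.01) and PSPH (-0.11, interval -0.21 to -0.01) had non-overlapping libraries and were not called (adjusted p = 0.253 and 0.276). PSAT1 differed by 0.02 (interval -0.16 to 0.20).

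In D1240A against F1295A, 3 of the 9 genes fell and the other 6 were not called, where 6.11% of all tested genes were called, 2.90% higher and 3.22% lower. That share was 2.74% without D1240A replicate 2, 2.97% without D1240A replicate 3, 2.15% without F1295A replicate 2 and 2.43% without F1295A replicate 3. It was 0.639% with only these groups in the fit and 0.436% on the values as deposited. PSAT1 fell by 0.47 (adjusted p = 0.00912), SHMT2 by 0.22 (adjusted p = 0.00510) and PSPH by 0.21 (adjusted p = 0.0252). The PSPH call was lost without D1240A replicate 3 or F1295A replicate 2 or 3 (adjusted p from 0.0790 to 0.0894). It was also lost with no filter (adjusted p = 0.0533). With only these 2 groups in the fit none of the 3 was called (0.0985 for PSAT1, 0.0805 for SHMT2 and 0.123 for PSPH). On the values as deposited PSAT1 alone of the 3 was called. PHGDH differed by -0.18 (interval -0.31 to -0.06, adjusted p = 0.0864), and was called without D1240A replicate 1 (adjusted p = 0.0397).

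**Figure D4:**
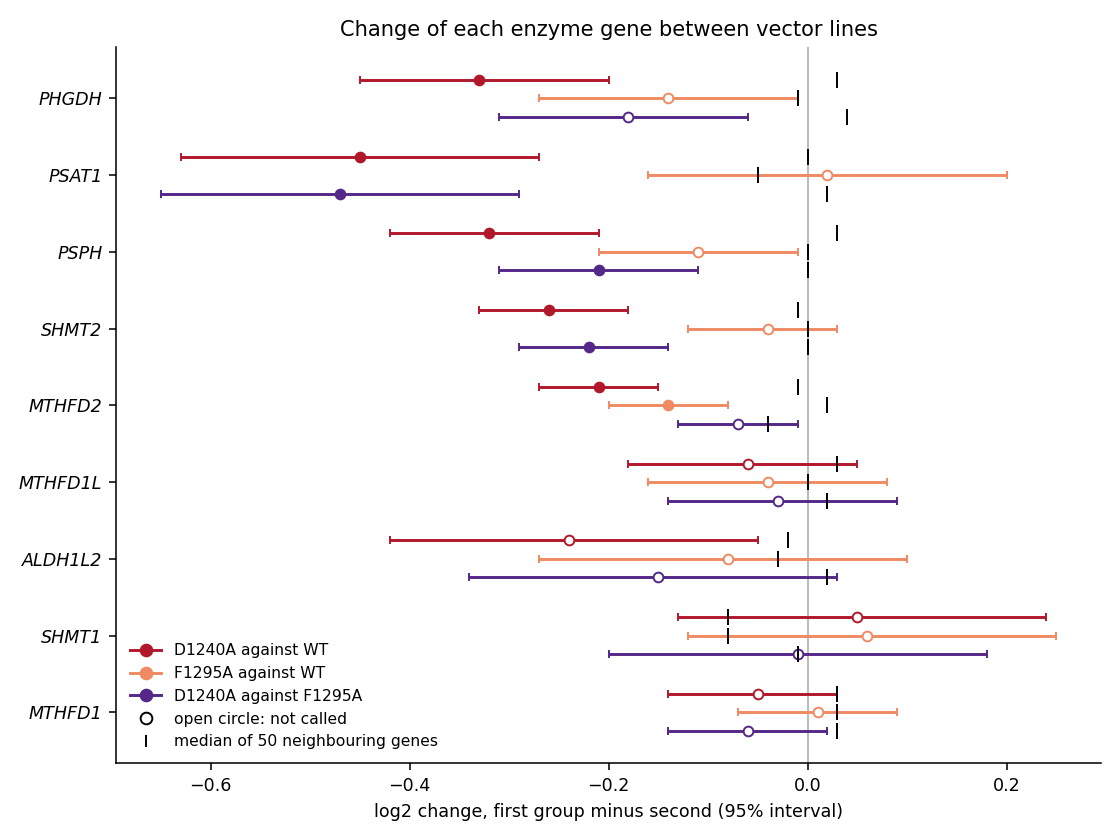
Log2 change of each enzyme gene in D1240A against WT, F1295A against WT and D1240A against F1295A with its 95% interval; filled circles were called, open circles not, and black ticks give the median of the 50 neighbouring genes. The 5 called genes of D1240A against WT lie between -0.45 and -0.21, and SHMT1, MTHFD1L and MTHFD1 lie near 0.

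All 6 genes that rose in WT against TKO had the order of group means WT, F1295A, D1240A, TKO from high to low, as did 41.7% of the 3706 tested genes that were higher in WT than in TKO. Within that order the step between WT and F1295A was called for MTHFD2 only, the step between F1295A and D1240A for PSPH and SHMT2, and the step between D1240A and TKO for all but MTHFD2. PSAT1 had the order TKO, F1295A, WT, D1240A, in which F1295A and WT did not differ beyond their spread. SHMT1 was highest in TKO, and its vector lines did not differ from each other beyond their spread. The order of NSD2 mRNA itself was D1240A, WT, F1295A, TKO.

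Genes of the amino acid response, the ATF4-linked program to which several of these enzymes belong, were mostly higher in the vector lines. Of 40 such genes outside the 9 enzymes, all tested, 36 rose, 1 fell and 3 were not called in WT against TKO, with a median of 0.88. In D1240A against TKO 36 rose and 1 fell, with a median of 0.66 (35 and 1 without D1240A replicate 2), and DDIT3, NARS1 and PPP1R15A were not called. In F1295A against TKO 37 rose, ALDH18A1 and PPP1R15A fell and NARS1 was not called, with a median of 0.80. Over all tested genes 25.8% were higher and 23.9% lower in WT against TKO. The shares were 23.0% and 21.6% in D1240A against TKO, and 23.7% and 22.0% in F1295A against TKO. ATF4 itself rose to 545 to 552 FPKM in WT, against 284 to 302 in TKO, a log2 change of 0.89 (adjusted p = 1.0e-09). The glutathione-degrading CHAC1 (2.82), the stress-induced DDIT4 (1.69), the leucine transporter SLC7A5 (1.22), asparagine synthetase ASNS (1.13) and the transcription factor CEBPB (1.29) rose in WT. ALDH18A1, the first enzyme of proline synthesis, fell in WT (50.2 FPKM on average in WT and 60.6 in TKO), and NUPR1, NARS1 and PPP1R15A were not called. PSAT1 and SHMT1, which fell, thus had the opposite direction to 36 of these 40 genes.

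In D1240A against WT the same list had 2 genes higher, 25 lower and 13 not called, with a median of -0.15. Over all tested genes 7.75% were higher and 11.2% lower. In F1295A against WT 13 of the list were lower and 27 not called, with a median of -0.14. Over all tested genes 0.876% were higher and 1.82% lower. Without D1240A replicate 2, 24 of the list were lower in D1240A against WT, and ATF5 and NUPR1 were not called as higher. In D1240A against F1295A 1 gene of the list was higher (ATF5, 0.16) and 10 were lower, or 7 lower without D1240A replicate 2. Over all tested genes 2.90% were higher and 3.22% lower in that comparison. DDIT3, a stress-induced transcription factor, measured 25.5 to 27.2 FPKM in D1240A, 31.8 to 35.3 in F1295A, 41.2 to 43.5 in WT and 25.9 to 27.3 in TKO. It fell by 0.67 in D1240A against WT (adjusted p = 3.3e-06), and D1240A and TKO overlapped. ATF4 mRNA fell by 0.13 in D1240A against WT (adjusted p = 0.0157), and in F1295A against WT it differed by -0.01 (interval -0.07 to 0.06, adjusted p = 0.963). The 2 higher genes were ATF5 (0.08) and NUPR1 (1.01, at 0.824 FPKM on average in D1240A and 0.145 in WT).

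The other folate and serine genes moved both ways. Of 39 listed, 29 were tested, and in WT against TKO 10 rose, 10 fell and 9 were not called, with a median of 0.01. In that comparison 25.8% of all tested genes were higher and 23.9% lower. CBS, which uses serine in cysteine synthesis, rose to 44.8 FPKM on average in WT, against 17.9 in TKO (1.30, adjusted p = 3.1e-10), with its near-identical copy CBSL at 0.690 FPKM at most as deposited. SLC1A5, a carrier of glutamine and serine, rose as well (1.02), while thymidylate synthase TYMS (-0.53), which consumes a folate one-carbon unit, and the glycine cleavage component DLD (-0.59) fell. In D1240A against WT SLC1A5 (-0.34), CTH of cysteine synthesis (-0.63) and the homocysteine-forming AHCY (-0.23) fell. CTH (-0.67) also fell in F1295A against WT. SLC1A5 (-0.20) and AHCY (-0.15) fell in D1240A against F1295A, and without D1240A replicate 2 neither was called.

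Purine synthesis, which uses formyl groups from this pathway, did not rise as a list. Of 13 tested genes 3 rose, 6 fell and 4 were not called in WT against TKO, with a median of -0.05. In that comparison 25.8% of all tested genes were higher and 23.9% lower. The phosphoribosyl pyrophosphate synthetases PRPS1 (-0.57) and PRPS2 (-0.39) and the folate-dependent GART (-0.42) fell, and IMPDH2 of guanine nucleotide synthesis rose (0.55). In D1240A against WT ADSS1 was higher (0.68) and IMPDH1 (-0.38) and IMPDH2 (-0.15) lower, where 19.0% of all tested genes were called. In F1295A against WT 0 of the 13 were called by limma, against 2.70% of all tested genes. Of the 13, 1 had an unadjusted p under 0.05. In D1240A against F1295A IMPDH1 was lower (-0.24) and the other 12 were not called, where 6.11% of all tested genes were called.

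**Figure D5:**
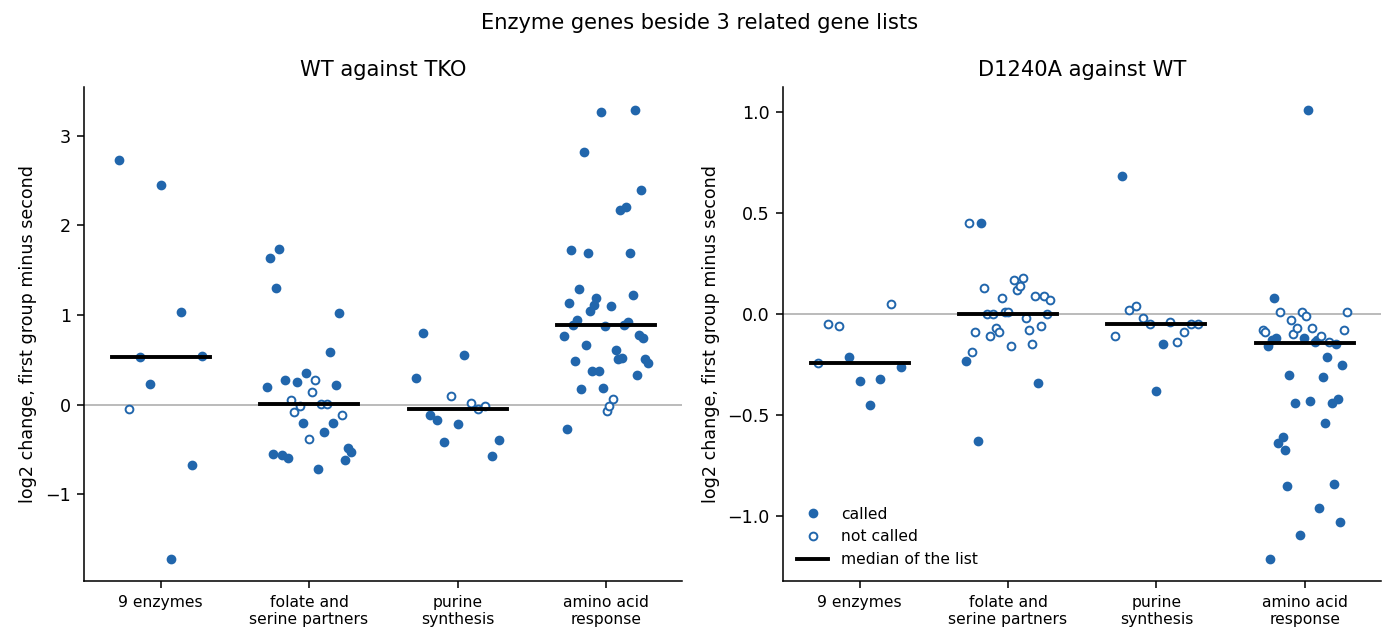
Log2 change of each tested gene of the 9 enzymes, 39 folate and serine partners (29 tested), 13 purine synthesis genes and 40 amino acid response genes in WT against TKO (left) and D1240A against WT (right); filled points were called, open points not, and bars are list medians. In WT against TKO the amino acid response list has its median at 0.88 and the enzymes at 0.53, while the other lists sit at 0.01 and -0.05.

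Likeness of profiles was measured as the root mean square difference between log2 values of the 12 libraries, each gene centred on its own mean, over 8502 protein-coding genes that averaged 5 FPKM or more. The 5 genes nearest to the mean profile of the 9 enzymes were IMPDH2 (0.043), LIPA (0.045), SFXN4 (0.045), FAM45A (0.046) and CDV3 (0.048). Single enzymes had other neighbours: COTL1 for PHGDH (0.091), ST6GAL1 for ALDH1L2 (0.126), OPN3 for PSPH (0.054), HSPA5 for SHMT2 (0.041), RNF2 for MTHFD1L (0.044), PGAM1 for MTHFD2 (0.026), MYD88 for SHMT1 (0.071) and EIF3B for MTHFD1 (0.027). PSAT1 had no close match, the nearest being SIK1B at 0.218, a near-identical copy of SIK1 whose reads can be split between both. Among the enzymes the nearest pair was SHMT2 and MTHFD1L (0.095). The measure describes these libraries, which share their groups and one origin.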

How the data were processed

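The submitters' processing notes name Trimmomatic 0.36, FastQC 0.11.4, STAR 2.7.9a, RSEM 1.3.1 and the build GRCh38, with DESeq2 for the authors' own comparisons. The deposited table gives 1 value per gene and library, under headers in RSEM's naming of its gene results. The headers do not name the unit. The values were taken to be FPKM, as an earlier processing of these files describes. Annotation release and strandedness: not given in the sources used here. Values carry 2 decimals, too coarse to recover reads, so depth is unknown and no counting error is given. Precision rests on 3 replicates per group, labelled as biological, so p-values measure the spread between these libraries. Spread between independently made lines of the same vector was not measured separately.

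From the deposited FPKM, 7089 structural RNA features were left out, each library was scaled to the mean library by log2 ratios averaged after trimming 30% from each side (over genes averaging 1 FPKM or more), and the 14391 genes reaching 0.5 FPKM in 3 or more libraries were fitted on log2(FPKM + 0.5). The fit used limma 3.58.1 (R 4.3.3) with group as factor, all 12 libraries and a variance trend. This scale understates changes of low genes. Intervals are 95% intervals of the fit. The limma fit was tested on simulated data with independent normal spread, which did not exercise the rescaling or the filter. Python 3.11.15 made tables and figures. Positions are from GENCODE 29, promoters from RefSeq. Neighbours are the 50 nearest tested genes, 25 on each side.

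Named genes were the enzymes, NSD2, ATF4, DDIT3, CEBPB, the 4 members of each list with the smallest adjusted p in WT against TKO, members that a count of 5 or fewer singles out, and the nearest profiles. Members and lists were chosen with earlier results of these data known. Alternatives tried were median-ratio scaling, deposited values, other filters and pseudocounts, structural RNA kept, library weights, only the compared groups, a replicate block, neighbour medians removed, at least 1.5-fold, and each library left out. The values of 1 listed gene are not reported here.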

Additional observations from a re-analysis of the deposited data

How the results depend on the processing

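With at least 1.5-fold required, 5 enzyme genes were called in each comparison with TKO and 0 in the others. Over all tested genes 16.2% were then called in WT, 12.9% in D1240A and 14.1% in F1295A against TKO. The shares were 3.39% in D1240A against WT, 0.618% in F1295A against WT and 0.57% in D1240A against F1295A. The 0 calls lie near these low shares and say nothing particular about the enzymes. The single call of F1295A against WT became 0 on the values as deposited, with only the compared groups and with the replicate block, and 0 to 1 with single libraries left out. The 3 calls of D1240A against F1295A became 2 with no filter, 1 on the deposited values and 0 with only the compared groups. With single libraries left out they numbered 2 to 4.

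Of 1242 refitted changes of single enzyme genes, 1185 kept direction and call, 33 lost the call, 3 gained it and 21 changed sign, each of the last not called in the reported fit. Signs changed on the deposited values for MTHFD2 in D1240A against TKO (-0.1236), SHMT1 in D1240A against WT (-0.0616), and PSAT1 (-0.0056) and MTHFD1 (-0.0217) in F1295A against WT, with neighbour medians removed for MTHFD2 in D1240A against TKO (-0.0040) and MTHFD1 in F1295A against WT (-0.0041), and with library weights for SHMT1 in D1240A against F1295A (0.0014). With single libraries left out, the changes that crossed 0 ranged from -0.0391 to 0.0993 for SHMT1 in D1240A against WT, from -0.0361 to 0.0496 for PSAT1, -0.0102 to 0.0318 for MTHFD1 and -0.0809 to 0.0067 for MTHFD1L in F1295A against WT, and from -0.1021 to 0.0361 for SHMT1 and -0.0704 to 0.0170 for MTHFD1L in D1240A against F1295A.

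Same-numbered replicates did not deviate together (correlations -0.053 to 0.085 in 18 pairs), so the numbers were not taken as pairs; the replicate block left 0 calls in F1295A against WT, as above, and ended the MTHFD1 call in D1240A against TKO (7 calls). Over all genes the calls of D1240A against F1295A numbered 880, against 532 with the block and 438 with no filter, and with library weights those of F1295A against WT numbered 618 in place of 388. Depth is unknown, so what it limits cannot be stated; with 3 libraries a group, the calls of MTHFD1 in D1240A against TKO, MTHFD2 in F1295A against WT and PSPH in D1240A against F1295A were lost when single libraries were left out.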
